A study of Homo sapiens with 8 samples.

Results

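The 28 genes described here encode enzymes of cholesterol synthesis and fatty acid synthesis, their regulators and 1 sterol carrier. They were picked by gene symbol from the 27945 genes counted in the series. The rule itself uses no measured value, although the list was drawn up with earlier results of these data known. All 28 had a row in the count table, and all 28 were among the 12844 genes that passed the filter on low counts. By role, 7 act in the isoprenoid and squalene steps, 10 in the sterol steps, 3 are regulators, 7 are fatty acid enzymes and 1 is the sterol carrier STARD4.

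The assay was fastGRO-seq, a measure of nascent RNA, on IMR90 ER:RAS cells. These are primary human lung fibroblasts carrying an oncogenic RAS that 4-hydroxytamoxifen (4-OHT) switches on. In this assay, polymerases that are already engaged in isolated nuclei extend their RNA with 4-thio-UTP, and the labeled RNA is captured and sequenced, so that the counts report transcription in progress rather than stored mRNA. The 4 groups of 2 libraries were control cells, labeled WT with no shRNA named, and senescent cells carrying shControl, shMETTL3 or shMETTL14. All cells were grown in 10% serum at 2% oxygen, and the senescent cells received 100 nM 4-OHT and were harvested on day 6. Whether the control cells received 4-OHT or an shRNA vector is not given in the sources used here, so senescence, 4-OHT itself and shRNA infection cannot be told apart in the comparison of senescent shControl cells with control cells. Each knockdown rested on 1 shRNA. The study describes its fastGRO-seq replicates as biologically independent, in a comparison of senescent with proliferating cells.

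Cholesterol is built from acetyl-CoA. HMG-CoA synthase (HMGCS1) opens the committed pathway, mevalonate is phosphorylated and decarboxylated to isoprenoid units, FDPS and FDFT1 join these units to squalene, and SQLE and LSS turn squalene into lanosterol, the first sterol. Further enzymes strip methyl groups from lanosterol and move its double bonds until cholesterol is made. Fatty acids start from the same acetyl-CoA, which ACLY releases from citrate, ACACA carboxylates and FASN polymerizes, and SCD and the FADS enzymes then introduce double bonds. Both branches are known targets of the SREBP transcription factors, the products of SREBF1 and SREBF2, which are held in the endoplasmic reticulum by INSIG proteins when sterols are plentiful.

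The libraries held 14897360 to 20306299 counts, of which 86.2% to 92.5% lay in 21 rows of ribosomal RNA genes, which left 1513930 to 2048475 counts for the other genes. The biological coefficient of variation was 10.6%, 1 estimate over the 4 groups. The variance between replicates, relative to counting noise, was 8.0 between the shMETTL3 libraries and 3.64 between the shMETTL14 libraries, against 1.74 (control) and 1.78 (shControl) in the other two groups. The tests use a spread estimated over all 4 groups, which can understate that of the shMETTL3 libraries. With only the 2 groups in question fitted, 1262 genes were higher and 1103 lower after METTL3 knockdown, against 1573 and 1434. After METTL14 knockdown the counts were 1609 and 1857 against 1175 and 1545, and in senescence 2312 and 2175 against 1711 and 1702. Counts on METTL3 dropped from 77 and 47 (shControl) to 16 and 19 (shMETTL3; log2 fold change -2.04 ± 0.31 SE, adjusted p = 1.8e-05). On METTL14 there were 24 and 28 counts in shControl cells against 18 and 14 in shMETTL14 cells, which did not pass the test (log2 fold change -0.86 ± 0.34, adjusted p = 0.0763). Nascent counts do not measure stored mRNA or protein, and the study presents its knockdowns by western blot. All 10 fibroblast markers examined were measured, with summed normalized counts of 14011 to 33069 per library, whereas none of the epithelial, endothelial, immune, adipocyte or hepatocyte markers passed the filter and each of these lists summed to at most 10.0 normalized counts in any library. In bulk nuclei, fewer transcribing cells and less transcription per cell cannot be told apart.

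Normalized counts are given below, which are raw counts divided by the library's effective size (total count times its TMM factor) relative to the mean over the 8 libraries. Per kilobase of gene, the median member had 4.30 normalized counts in control cells, against 1.64 over all genes tested. SCD, which makes monounsaturated fatty acids, was the highest at 46.5 normalized counts per kilobase, above 98.2% of the genes tested, followed by FASN at 29.1 and FADS1 at 12.2. HSD17B7, a ketosteroid reductase of the sterol branch, was the lowest at 0.554, above 18.9% of the genes tested. The mean raw count was at least 100 in 15 members, and HSD17B7, TM7SF2, EBP, PMVK and MVK had means of 8.0 to 12.9 counts, so that only large differences could be seen for them. The counts span whole genes and did not separate the strands, and therefore 32.0% of FDPS could also hold reads of RUSC1-AS1, 27.6% of IDI1 reads of IDI2-AS1, 5.36% of FADS1 reads of its neighbors (mostly FADS2) and 5.2% of ACACA reads of genes inside it. HSD17B7 has closely related pseudogenes, so its counts are uncertain.

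**Figure D1:**
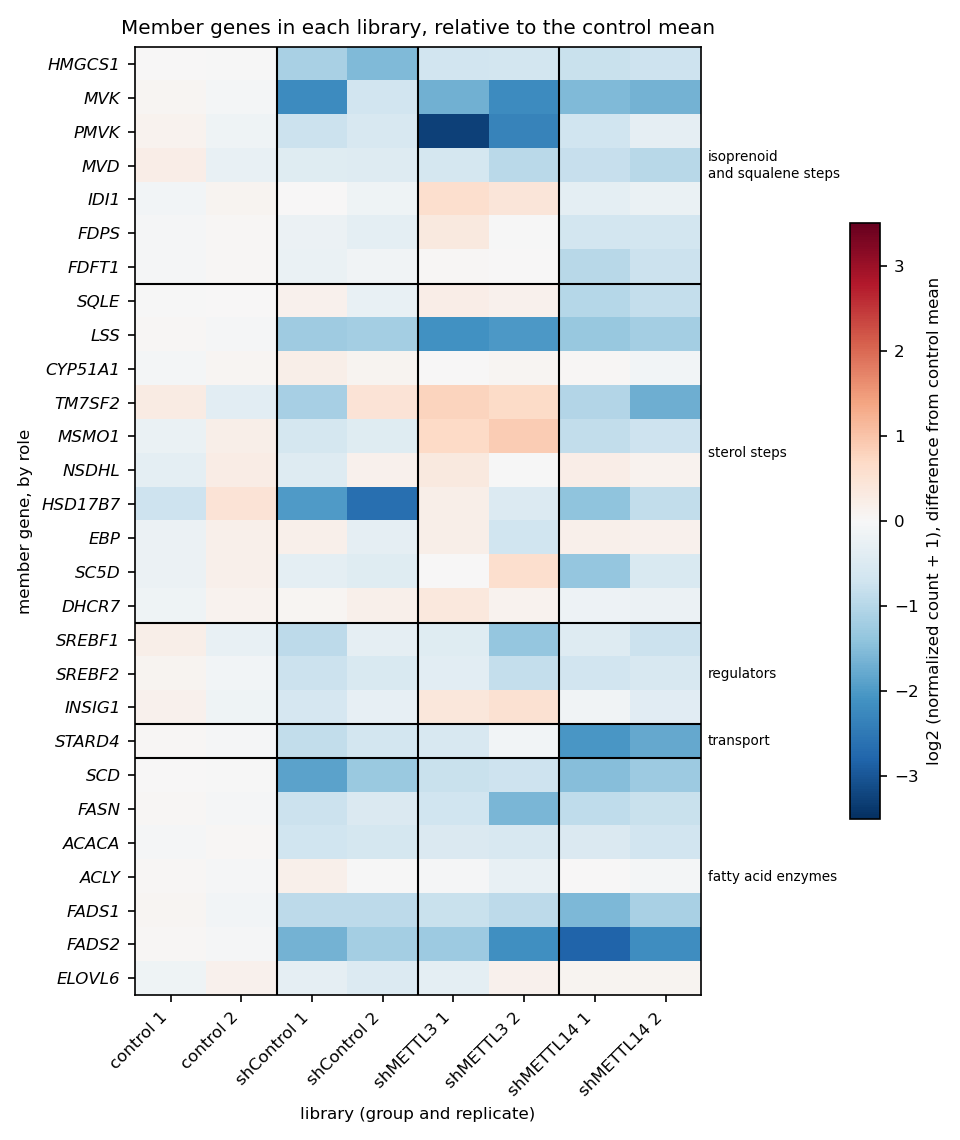
Each row is a member gene, grouped by role, and each column a library. Color gives log2 of the normalized count plus 1, minus log2 of the control mean plus 1, with blue for values below control cells. FADS2, LSS and SCD were below the control mean in all 6 senescent libraries, and MSMO1 was above it only in the 2 shMETTL3 libraries and 1 control library.

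Promoter sequences show which of the known control elements of this pathway lie at these genes. RefSeq windows (GRCh38.p14) that run from 250 bases before to 50 bases after an annotated start were found for 25 of the 28 members, as 34 windows since some genes have several starts. FDFT1, SQLE and FASN were not matched. Motifs were counted on both strands. CCAAT, the element bound by NF-Y, a factor known to act beside SREBP, was in 70.6% of the member windows and in 34.7% of the windows of all genes tested. The GC box GGGCGG was in 88.2% of member windows and 64.0% of those of genes tested. The E-box CACGTG was in 11.8% of member windows against 9.18%, and the sterol regulatory element TCACNCCAC in 2.94% against 1.08%, which was the single window of SREBF2. These shares are descriptions of letters in short windows. The 250 bases before the start are printed 5′ to 3′ for 5 members with 1 listed start that the results below turn on, with every match to the sterol regulatory element, E-box or CCAAT box in capitals (ATTGG is CCAAT on the other strand): SREBF2, which carried the sterol element and was lower in senescence, INSIG1 and MSMO1, which rose after METTL3 knockdown, SCD, the member with the most counts per kilobase in control cells, and LSS, which fell after METTL3 knockdown.
SREBF2 (chr22:41832855-41833104, plus strand): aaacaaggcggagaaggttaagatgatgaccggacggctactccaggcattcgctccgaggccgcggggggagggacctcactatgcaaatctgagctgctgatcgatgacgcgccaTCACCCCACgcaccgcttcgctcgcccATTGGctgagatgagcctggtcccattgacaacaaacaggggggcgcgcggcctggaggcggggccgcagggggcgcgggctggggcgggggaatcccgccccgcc
INSIG1 (chr7:155297628-155297877, plus strand): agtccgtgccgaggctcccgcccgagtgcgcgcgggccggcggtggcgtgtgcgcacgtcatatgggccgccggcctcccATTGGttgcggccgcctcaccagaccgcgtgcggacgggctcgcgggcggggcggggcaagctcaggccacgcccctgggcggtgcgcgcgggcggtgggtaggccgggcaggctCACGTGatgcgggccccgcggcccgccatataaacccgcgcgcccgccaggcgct
MSMO1 (chr4:165327419-165327668, plus strand): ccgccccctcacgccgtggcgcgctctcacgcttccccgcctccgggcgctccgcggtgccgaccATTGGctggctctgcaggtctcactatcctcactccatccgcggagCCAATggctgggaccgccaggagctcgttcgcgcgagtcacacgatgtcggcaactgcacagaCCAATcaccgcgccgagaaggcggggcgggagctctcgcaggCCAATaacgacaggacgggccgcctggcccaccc
SCD (chr10:100346983-100347232, plus strand): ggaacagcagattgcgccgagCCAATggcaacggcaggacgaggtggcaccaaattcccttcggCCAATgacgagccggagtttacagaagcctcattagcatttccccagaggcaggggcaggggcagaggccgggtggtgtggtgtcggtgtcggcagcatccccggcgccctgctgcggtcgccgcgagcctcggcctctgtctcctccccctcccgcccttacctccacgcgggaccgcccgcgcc
LSS (chr21:46228775-46229024, minus strand): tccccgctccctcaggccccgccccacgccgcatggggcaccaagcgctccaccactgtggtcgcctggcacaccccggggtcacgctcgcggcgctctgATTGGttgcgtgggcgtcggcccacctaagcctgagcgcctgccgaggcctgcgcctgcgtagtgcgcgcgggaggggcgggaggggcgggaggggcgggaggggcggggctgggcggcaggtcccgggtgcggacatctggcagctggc
The sterol element of SREBF2 began 133 bases before the start, next to a CCAAT box 106 bases before it. INSIG1 held an E-box 55 bases and a CCAAT box 170 bases before the start. MSMO1, which encodes the sterol C4-methyl oxidase, held 4 CCAAT boxes between 185 and 34 bases before its start, SCD held 2 and LSS held 1. The window of LSS also held an E-box 40 bases after the start, outside the printed bases.

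The first comparison asked how transcription of these genes differed between senescent shControl cells and control cells. Of the 28 members, 11 were lower and 0 were higher (edgeR quasi-likelihood test, Benjamini-Hochberg adjusted p below 0.05), while 13.3% of all genes tested were lower and 13.3% higher. DESeq2 also called 0 members higher, and 0 had an unadjusted p below 0.05 in that direction. The members had a median log2 fold change of -0.48, against -0.03 over all genes tested, and 25 of the 28 estimates were below 0. The fatty acid enzymes accounted for 5 of the 11 calls, the isoprenoid and squalene steps for 2 of 7, the sterol steps for 2 of 10, the regulators for 1 of 3, and STARD4 was the last.

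Among the fatty acid enzymes, SCD (chr10:102106772-102124588 in hg19, plus strand) fell most. The control libraries held 835 and 823 normalized counts of it and the senescent libraries 226 and 336, 2.94-fold lower (log2 fold change -1.56 ± 0.16 SE, adjusted p = 1.02e-08). Both senescent libraries lay far below both control libraries. FADS2, the delta-6 desaturase of polyunsaturated fatty acid synthesis, had 428 and 405 normalized counts in control cells and 131 and 183 in senescent cells (-1.40 ± 0.20, adjusted p = 3.39e-06). Its neighbor FADS1, the delta-5 desaturase, which lies head to head with it (chr11:61567097-61584529 for FADS1 and chr11:61583675-61634826 for FADS2), fell from 226 and 201 to 113 and 114 normalized counts (-0.91 ± 0.17, adjusted p = 0.000166). These genes share 855 bases. The enzymes that build the chain had smaller estimates. ACACA, acetyl-CoA carboxylase, went from 663 and 693 to 415 and 445 normalized counts (-0.66 ± 0.13, adjusted p = 0.000409), and FASN, fatty acid synthase, from 598 and 561 to 346 and 408 (-0.62 ± 0.18, adjusted p = 0.00992). ACLY, which supplies the acetyl-CoA, did not pass the test, with 550 and 513 normalized counts in control and 596 and 523 in senescent cells, and its 95% interval on the log2 scale ran from -0.20 to 0.35. The elongase ELOVL6 also did not pass (-0.39 ± 0.18, adjusted p = 0.109).

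In the cholesterol branch, the called genes stood at separate points of the pathway. HMGCS1 (chr5:43287572-43313326, minus strand) had 181 and 177 normalized counts in control cells and 81.6 and 60.1 in senescent cells, 2.53-fold lower (-1.34 ± 0.18, adjusted p = 2.2e-06). LSS, lanosterol synthase (chr21:47608360-47648738, minus strand), had 369 and 354 in control and 153 and 159 in senescent cells, 2.32-fold lower (-1.21 ± 0.14, adjusted p = 2.13e-07). For both genes, each senescent library was below each control library. This held for 20 of the 28 members, and the share over all genes was not counted. Between these steps, MVK, mevalonate kinase, was called on few reads, with 30 and 28 raw counts in control and 4 and 14 in senescent cells (-1.30 ± 0.48, adjusted p = 0.0452), a call that 5 of 11 alternatives kept. HSD17B7 had 8 and 20 raw counts in control cells and 2 and 1 in senescent cells, a ratio of 7.15 with a counting interval of 2.21 to 36.7 (exact binomial, counting error only, adjusted p of the fit 0.0118). By contrast, IDI1, FDFT1, SQLE and CYP51A1 had log2 fold changes between -0.18 and 0.16 and did not pass. For SQLE, the epoxidase that makes the substrate of LSS, the interval ran from -0.45 to 0.33. MSMO1 missed the threshold (-0.52 ± 0.20, adjusted p = 0.0551) but was called lower under 6 of 12 alternatives.

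Of the regulators, SREBF2, the main activator of the cholesterol genes, had 285 and 253 normalized counts in control cells and 158 and 185 in senescent cells (-0.65 ± 0.16, adjusted p = 0.00303). SREBF1 (-0.59 ± 0.25, adjusted p = 0.079) and INSIG1 (-0.43 ± 0.19, adjusted p = 0.0927) had estimates of similar size and did not pass. STARD4, which carries sterols between membranes, went from 91.2 and 87.1 to 48.5 and 56.8 normalized counts (-0.76 ± 0.23, adjusted p = 0.0135).

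The calls of HMGCS1, LSS, SCD, ACACA, FADS1 and FADS2 held under all 12 alternatives fitted. Without senescent shControl replicate 1, 6 members were called lower, and the calls of FASN (adjusted p = 0.182), SREBF2 (0.0991), STARD4 (0.159), MVK (0.459) and HSD17B7 (0.0742) were lost. Those of FASN (0.0791), SREBF2 (0.0623), STARD4 (0.0852) and MVK (0.194) were also lost without control replicate 1, those of STARD4 (0.0532), MVK (0.136) and HSD17B7 (0.244) without control replicate 2, and that of HSD17B7 (0.143) without shControl replicate 2, while MSMO1 (0.0298, without control replicate 1) and SREBF1 (0.0489, without control replicate 2) gained a call. DESeq2 called 8 members lower, without MVK (0.29), HSD17B7 (0.1) and STARD4 (0.162). MVK was also lost with TMM without ribosomal RNA rows (0.0506) and with the replicate number as a block (0.055). MSMO1 was called lower with upper quartile scaling (0.0322), a minimum of 10 counts in every library (0.0406), the block (0.0403), only the 2 groups fitted (0.0326) and scaling by total count (0.000242). SREBF1 was called lower with no filter (0.044) or only the 2 groups fitted (0.0138). Scaled by total count alone, ribosomal RNA included, the median over all genes moved to -0.53, with 39% of genes lower and 5.85% higher, and 23 members were lower. The summed fibroblast markers were 30958 to 33069 normalized counts in control cells and 21522 to 23227 with shControl, and their part in the members' values was not tested.

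In other lists of lipid genes, calls went in both directions or upward. Over all genes tested, 13.3% were higher and 13.3% lower, and the lists were not tested against these shares. Of 17 tested genes of cholesterol uptake, efflux and LXR signaling, 4 were higher and 3 lower, with NPC1, which exports cholesterol from lysosomes, at 62.8 normalized counts on average in control and 206 in senescent cells (log2 fold change 1.71 ± 0.17, adjusted p = 1.04e-08), and ABCA1, the cholesterol efflux pump, at 552 and 1329 (1.27 ± 0.16, adjusted p = 8.08e-07). Of 26 tested genes of other fatty acid synthesis and storage, 4 were higher and 2 lower, and of 16 of fatty acid oxidation 3 were higher. Of 15 other genes of sterol synthesis and SREBP processing, 1 was higher and 1 lower. The difference between these lists and the members was not tested. Of 6 genes that follow growth arrest, 4 were lower and 1 higher, among them the proliferation marker MKI67 with means of 187 normalized counts in control and 44.3 in senescent cells. The part of growth arrest in the members' values was not tested.

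**Figure D2:**
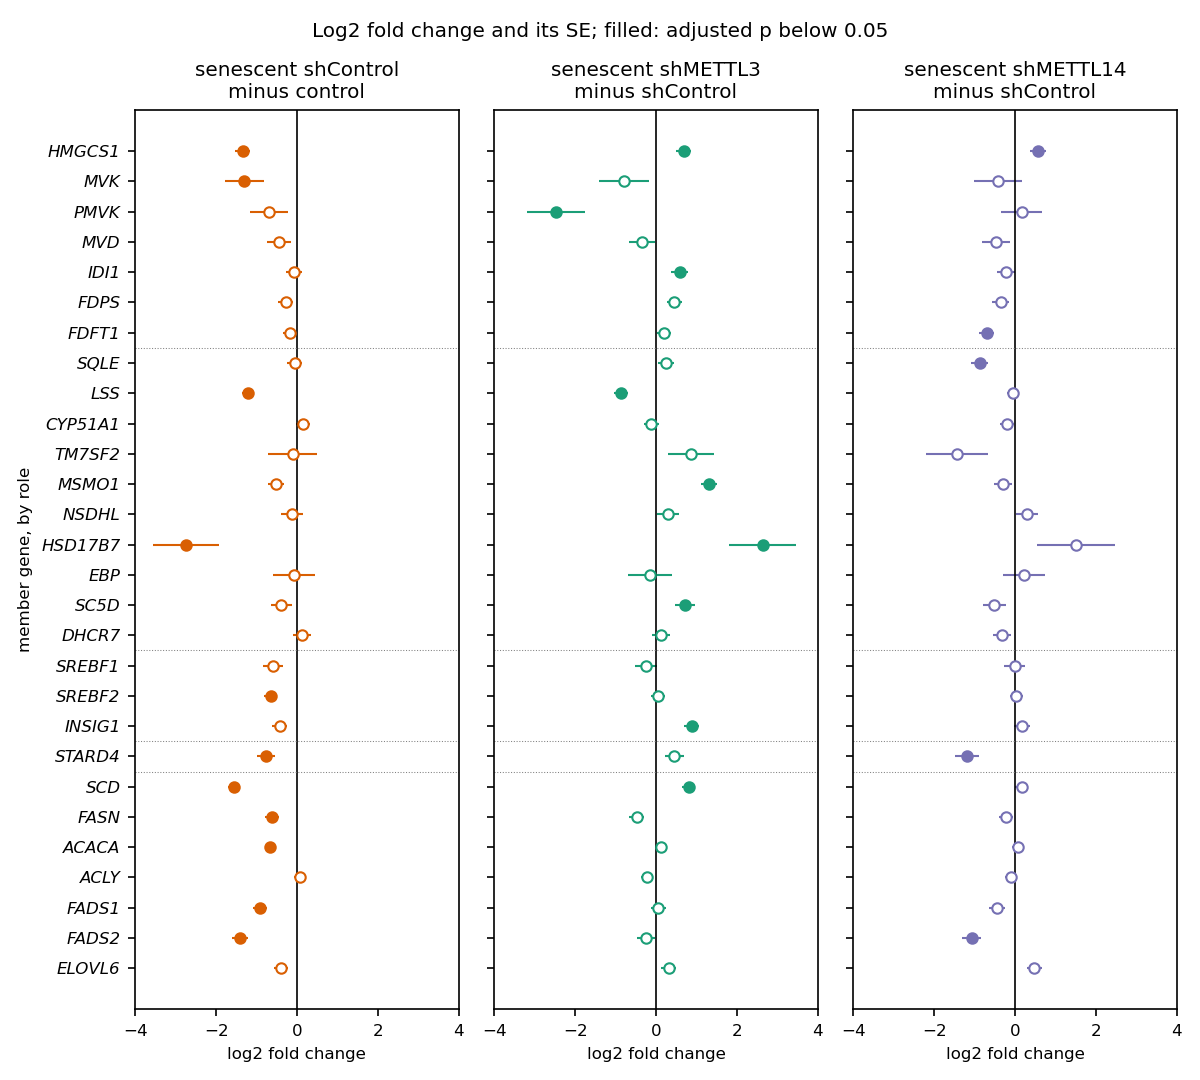
The 28 members are shown by role with their log2 fold change and SE in senescent shControl against control cells (left), shMETTL3 against shControl (middle) and shMETTL14 against shControl (right). Filled points passed an adjusted p below 0.05, which were 11 lower on the left, 7 higher and 2 lower in the middle, and 1 higher and 4 lower on the right.

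The second comparison asked what METTL3 knockdown changed within senescent cells. METTL3 is the catalytic subunit of the m6A methyltransferase complex. HMGCS1, IDI1, MSMO1, HSD17B7, SC5D, INSIG1 and SCD rose, which was 7 of the 28 members, while 12.2% of all genes tested were higher. PMVK and LSS fell, which was 2 of 28, while 11.2% of all genes tested were lower. The members' median log2 fold change was 0.17, and that of all genes tested -0.03. By role, the rises were 2 of 7 isoprenoid and squalene genes, 3 of 10 sterol genes, 1 of 3 regulators (INSIG1) and 1 of 7 fatty acid enzymes (SCD), and the difference between roles was not tested.

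MSMO1 (chr4:166248818-166264314, plus strand) rose most among members with at least 100 counts. It had 73.3 and 83.5 normalized counts with shControl and 183 and 208 with shMETTL3, 2.49-fold higher (log2 fold change 1.32 ± 0.19, adjusted p = 1.03e-05). Both shMETTL3 libraries also exceeded the control cells, which had 94.8 and 130. SC5D, the sterol desaturase that acts late in the pathway, had 59.1 and 55.6 normalized counts with shControl and 75.9 and 113 with shMETTL3 (0.72 ± 0.25, adjusted p = 0.0362). HSD17B7 went from 2 and 1 raw counts to 14 and 9, a ratio of 6.59 with a counting interval of 1.99 to 34.3 (adjusted p of the fit 0.0216). In the isoprenoid steps, HMGCS1 rose from 81.6 and 60.1 to 113 and 114 normalized counts (0.68 ± 0.19, adjusted p = 0.0116), and IDI1, which isomerizes isopentenyl diphosphate, from 73.3 and 64.6 to 110 and 96.8 (0.58 ± 0.20, adjusted p = 0.0369). The overlapping IDI2-AS1 had 50 and 46 raw counts with shControl and 97 and 86 with shMETTL3, so the rise of IDI1 cannot be told apart from reads of that gene.

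INSIG1 (chr7:155089482-155101945, plus strand), which retains the SREBP escort protein and is itself an SREBP target, rose from 85.1 and 106 to 168 and 185 normalized counts (0.89 ± 0.18, adjusted p = 0.00074). SREBF2 did not pass, with 158 and 185 against 207 and 151, nor did SREBF1, with 62.7 and 94.6 against 88.2 and 45.6. For both, the libraries of the groups overlapped. SCD rose from 226 and 336 to 479 and 506 normalized counts (0.81 ± 0.16, adjusted p = 0.000412), a level still under the 823 and 835 of the control libraries.

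LSS went the other way. It had 153 and 159 normalized counts with shControl and 82.1 and 88.3 with shMETTL3, 1.83-fold lower (-0.87 ± 0.17, adjusted p = 0.000356). Its counts were thus highest in control cells, at 369 and 354, and lowest with shMETTL3. PMVK, phosphomevalonate kinase, had 9 and 11 raw counts with shControl and 1 and 3 with shMETTL3, a ratio of 5.81 in favor of shControl with a counting interval of 1.95 to 23.4 (adjusted p of the fit 0.0133). FASN differed between the shMETTL3 libraries themselves, at 356 and 191 normalized counts, as did FADS2 at 172 and 94.0. None of FASN, ACACA, ACLY, FADS1, FADS2 and ELOVL6 passed the test in this comparison.

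The calls of MSMO1 and INSIG1 held under all 12 alternatives fitted. Without shControl replicate 1, and likewise without replicate 2, 3 members were called higher. The call of SCD was lost without shControl replicate 1 (adjusted p = 0.0576) and that of HMGCS1 without shControl replicate 2 (0.243). The calls of IDI1 (0.104 and 0.27), SC5D (0.137 and 0.214), HSD17B7 (0.0935 and 0.21) and PMVK (0.0509 and 0.0954) were lost without shControl replicate 1 or 2. IDI1 (0.105), HSD17B7 (0.0897) and PMVK (0.0576) also lost theirs without shMETTL3 replicate 1, and SC5D (0.386) without shMETTL3 replicate 2. Without shMETTL3 replicate 1, FASN (-1.0, adjusted p = 1.77e-05), FADS2 (-0.76, 0.00826) and SREBF1 (-0.81, 0.0317) were called lower and STARD4 (0.65, 0.0411) and ELOVL6 (0.52, 0.0277) higher, and without shMETTL3 replicate 2 FDPS (0.60, 0.03) was called higher. DESeq2 called 3 members higher and 1 lower, without HMGCS1 (0.0654), IDI1 (0.193) and SC5D (0.173), and gave no adjusted p for HSD17B7 and PMVK. IDI1 was also lost with no filter (0.0628) or only the 2 groups fitted (0.0777), and FASN was called lower with no filter (0.0162). Scaled by total count alone, the median over all genes moved to 0.58, with 41.1% of genes higher and 2.75% lower, 18 members were higher and 1 lower, and LSS no longer passed. Of the 6 growth arrest genes 3 were lower in this comparison, MKI67 having means of 44.3 normalized counts with shControl and 0.513 with shMETTL3, and the summed fibroblast markers were 21522 to 23227 and 24918 to 29304. Their part in the members' values was not tested.

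In the other lists, METTL3 knockdown lowered SCAP, the escort of SREBP, from 87.0 to 47.8 normalized counts on average (-0.86 ± 0.22, adjusted p = 0.00497) and MBTPS1, the protease that cuts SREBP, from 189 to 127 (-0.57 ± 0.16, adjusted p = 0.0104). These were the falls among 15 tested genes of sterol synthesis and SREBP processing, of which 1 rose. ABCA1 (0.84 ± 0.16, adjusted p = 0.000273) and NPC1 (0.88 ± 0.14, adjusted p = 5.11e-05) rose further, 2 of 3 rises beside 2 falls among 17 uptake and efflux genes. Of 16 fatty acid oxidation genes 6 fell and 1 rose, and CPT1A, which admits fatty acids to mitochondria, went from 120 to 32.2 normalized counts (-1.90 ± 0.23, adjusted p = 5.88e-07). Of 26 genes of other fatty acid synthesis and storage, 5 rose and 6 fell. Over all genes tested, 12.2% were higher and 11.2% lower, and the lists were not tested against these shares.

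The third comparison asked the same of METTL14, the partner of METTL3 in the complex. Its own nascent counts did not pass the test with shMETTL14, and they do not measure its stored mRNA or protein. HMGCS1 rose and FDFT1, SQLE, STARD4 and FADS2 fell, which was 1 member higher, against 9.15% of all genes tested, and 4 lower, against 12%. The share of members called lower was near that of all genes. The median log2 fold change of the members was -0.21, and -6.39e-05 over all genes tested.

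FADS2 fell from 131 and 183 normalized counts with shControl to 59.0 and 91.6 with shMETTL14 (-1.07 ± 0.24, adjusted p = 0.00171). STARD4 (chr5:110831732-110848295, minus strand) fell from 48.5 and 56.8 to 21.0 and 25.3 (-1.19 ± 0.29, adjusted p = 0.00341), the largest called fall. SQLE fell from 111 and 83.5 to 49.98 and 55.8 (-0.88 ± 0.21, adjusted p = 0.00374), and FDFT1, squalene synthase, the step just before it, from 127 and 137 to 75.0 and 87.4 (-0.70 ± 0.18, adjusted p = 0.00618). In all 4 genes, picked here by their calls, both shMETTL14 libraries lay below both shControl libraries. This held for 13 of the 28 members, and the share over all genes was not counted. HMGCS1 rose from 81.6 and 60.1 to 103 and 108 (0.58 ± 0.20, adjusted p = 0.0356). SCD had 226 and 336 normalized counts with shControl and 293 and 340 with shMETTL14, which overlap, and its interval ran from -0.16 to 0.50. LSS, with 153 and 159 against 144 and 157, had an interval from -0.37 to 0.27.

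None of these 5 calls held under all 12 alternatives fitted. Without shMETTL14 replicate 1 all 4 falls lost their calls, and the adjusted p was 0.0628 for FADS2, 0.0575 for STARD4, 0.0567 for SQLE, 0.0982 for FDFT1 and 0.137 for HMGCS1. Without shControl replicate 2 it was 0.0872 for FADS2, 0.0561 for STARD4, 0.0809 for FDFT1 and 0.387 for HMGCS1, without shControl replicate 1 it was 0.113 for SQLE, and without shMETTL14 replicate 2 it was 0.144 for HMGCS1. DESeq2 called 0 members higher and 3 lower, without HMGCS1 (0.193) and FDFT1 (0.0562), and HMGCS1 was also lost with no filter (0.0526). Scaled by total count alone, the median over all genes moved to 0.35, with 24.6% of genes higher and 5.53% lower, and 3 members were higher and 2 lower, without FDFT1 (0.243) and SQLE (0.103). Of the growth arrest genes 4 were lower and 1 higher, with MKI67 at 2.08 normalized counts on average after METTL14 knockdown. The summed fibroblast markers were 21522 to 23227 normalized counts with shControl and 14011 to 16664 with shMETTL14, and here too the part of both lists was not tested.

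Among the other lists, the uptake and efflux genes had 4 falls of 17, the fatty acid oxidation genes 4 of 16, with CPT1A again lower (120 to 33.3 normalized counts, -1.84 ± 0.23, adjusted p = 8.45e-07), and the other fatty acid genes 6 rises and 5 falls of 26. Over all genes tested, 9.15% were higher and 12% lower, and the lists were not tested against these shares. PLIN2, which coats lipid droplets, went from 80.9 to 167 normalized counts with shMETTL14 (1.04 ± 0.22, adjusted p = 0.000779) and to 31.4 with shMETTL3 (-1.37 ± 0.27, adjusted p = 0.000453).

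**Figure D3:**
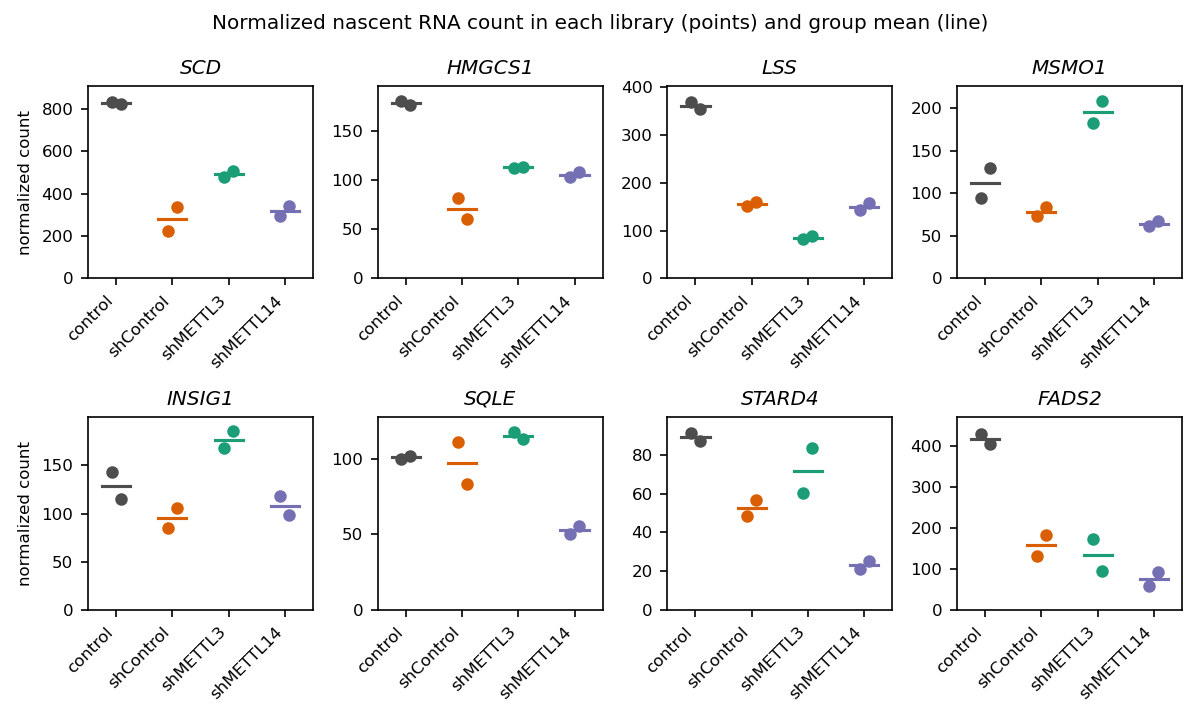
Normalized counts of 8 members in each library (points) with the group mean (line), on linear axes from 0, for control cells and senescent cells with shControl, shMETTL3 or shMETTL14. SCD, HMGCS1, LSS and FADS2 were highest in control cells, MSMO1 and INSIG1 in shMETTL3 cells, and SQLE and STARD4 were lowest in shMETTL14 cells.

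The knockdowns were then compared with each other directly, which leaves out the shControl libraries that both share. Of the 28 members, 12 were lower with shMETTL14 than with shMETTL3, against 18.7% of all genes tested, and 2 were higher, against 16.5%. The median log2 fold change was -0.28 for the members and 0.01 for all genes tested. The lower genes were IDI1, FDPS and FDFT1 of the isoprenoid and squalene steps, SQLE, TM7SF2, MSMO1 and SC5D of the sterol steps, INSIG1, STARD4, SCD, FADS1 and FADS2.

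MSMO1 was measured at 183 and 208 normalized counts with shMETTL3 and 61.0 and 67.4 with shMETTL14, 3.04-fold lower (-1.61 ± 0.19, adjusted p = 3.34e-07). STARD4 had 60.5 and 83.6 against 21.0 and 25.3, 3.12-fold lower (-1.64 ± 0.27, adjusted p = 2.54e-05). The consecutive enzymes FDPS, FDFT1 and SQLE were each lower with shMETTL14. FDPS had 146 and 114 normalized counts against 74.0 and 73.7 (-0.81 ± 0.19, adjusted p = 0.00155), FDFT1 153 and 151 against 75.0 and 87.4 (-0.90 ± 0.18, adjusted p = 0.000216), and SQLE 118 and 113 against 49.98 and 55.8 (-1.13 ± 0.20, adjusted p = 0.000103). IDI1 (-0.81 ± 0.20, adjusted p = 0.00286), SC5D (-1.24 ± 0.26, adjusted p = 0.000507), INSIG1 (-0.71 ± 0.18, adjusted p = 0.00266) and SCD (-0.64 ± 0.16, adjusted p = 0.00208) were lower as well. RUSC1-AS1, which overlaps FDPS, had 61 and 64 raw counts with shMETTL3 and 39 and 36 with shMETTL14, and IDI2-AS1, which overlaps IDI1, had 97 and 86 against 41 and 48. The difference of IDI1 cannot be told apart from reads of its neighbor. With every read of RUSC1-AS1 taken off, FDPS still had 81 and 56 raw counts with shMETTL3 and 35 and 34 with shMETTL14, whereas IDI1 without the reads of IDI2-AS1 had 10 and 16 against 16 and 10. Among members sharing under 5% of their span with another gene, 9 were lower. TM7SF2, a sterol reductase, had only 16 and 16 raw counts with shMETTL3 and 4 and 2 with shMETTL14.

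The exceptions were LSS, at 82.1 and 88.3 with shMETTL3 and 144 and 157 with shMETTL14, 1.76-fold higher (0.82 ± 0.17, adjusted p = 0.000367), and PMVK, with 1 and 3 against 11 and 14 raw counts, a ratio of 6.5 with a counting interval of 2.24 to 25.7 (adjusted p of the fit 0.00409). HMGCS1, which was higher after each knockdown than with shControl, had a difference between them of -0.10 with an interval from -0.47 to 0.27. The intervals were also narrow around small differences for ACACA (-0.32 to 0.22), ACLY (-0.15 to 0.41) and SREBF2 (-0.36 to 0.32).

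Of these 14 calls, 10 held under every alternative fitted, namely IDI1, FDPS, FDFT1, SQLE, MSMO1, SC5D, SCD, STARD4, LSS and PMVK. INSIG1 lost its call without shMETTL14 replicate 2 (adjusted p = 0.052), TM7SF2 without either shMETTL14 library (0.0501 and 0.102), and FADS1 (0.112 and 0.363) and FADS2 (0.304 and 0.173) without replicate 1 of shMETTL3 or of shMETTL14, where the log2 fold change of FADS2 was -0.31 and -0.55. FADS1 also lost its call with DESeq2 (0.146), upper quartile scaling (0.0587), no filter (0.0536) or only the 2 groups fitted (0.0992), so that 6 of 12 alternatives kept it, and TM7SF2 lost its call with DESeq2 (0.0639). Without shMETTL3 replicate 1, SREBF1 (0.79, adjusted p = 0.0242) and FASN (0.78, 0.000312) were called higher and the members called higher numbered 4. Scaled by total count alone, 27.1% of all genes were lower and 9.16% higher, with 13 members lower and 2 higher. The summed fibroblast markers were 24918 to 29304 normalized counts with shMETTL3 and 14011 to 16664 with shMETTL14, and of the 6 growth arrest genes 1 was higher with shMETTL14. The part of these lists was not tested here either.

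**Figure D4:**
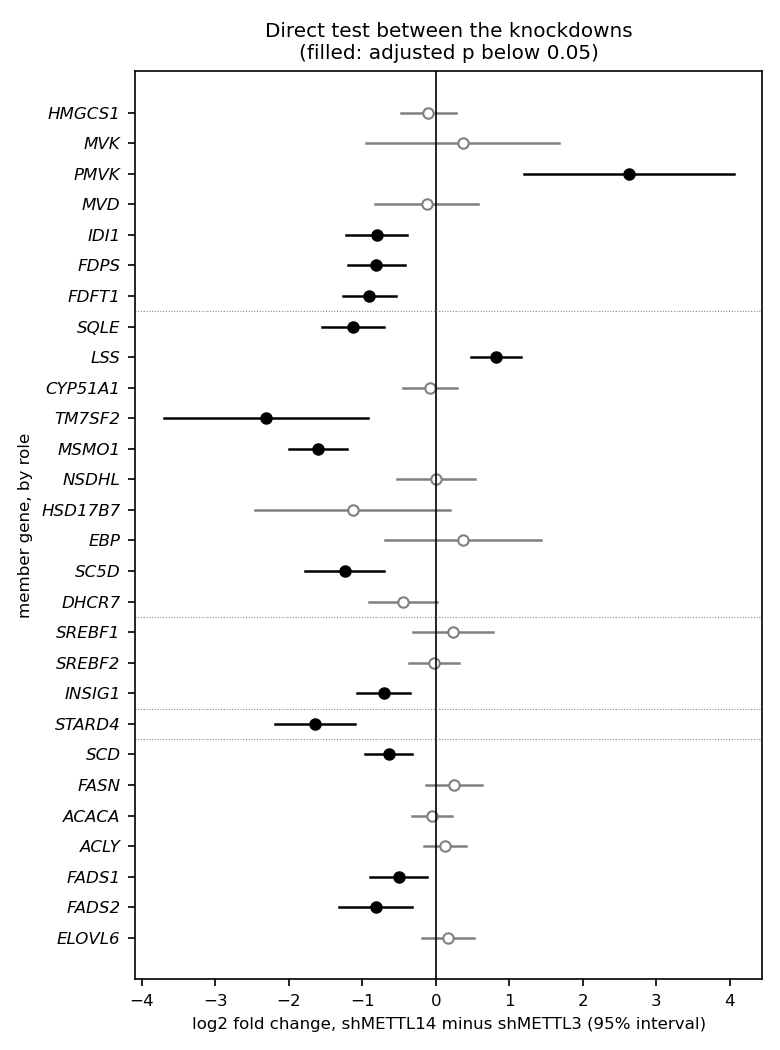
Log2 fold change of shMETTL14 minus shMETTL3 for the 28 members, by role, with its 95% interval as a line. Filled points passed an adjusted p below 0.05: 12 lie left of 0, from FADS1 at -0.50 to TM7SF2 at -2.31, and LSS and PMVK lie to the right.

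Each knockdown was last set against the control cells, a comparison in which senescence, the shRNA and the knockdown go together. With shMETTL14, 16 of the 28 members were lower than in control cells, against 20.5% of all genes tested, and 0 were higher, against 19.7%. DESeq2 also called 0 higher, and 0 had an unadjusted p below 0.05 in that direction. The median log2 fold change was -0.78 for the members and 0.0024 for all genes tested. With shMETTL3, 12 members were lower and 3 higher, against 20.1% lower and 20.1% higher over all genes tested, and the medians were -0.18 and -0.05. Both comparisons use the same control libraries. In each, 5 of the 6 growth arrest genes were lower and 1 higher, and the summed fibroblast markers were below the 30958 to 33069 normalized counts of control cells in every knockdown library, with their part in these values not tested.

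The fatty acid enzymes were lower in both, 5 of 7 each, and these were SCD, FASN, ACACA, FADS1 and FADS2. FADS2 was 3.14-fold lower with shMETTL3 (-1.65 ± 0.20, adjusted p = 1.51e-07) and 5.54-fold lower with shMETTL14 (-2.47 ± 0.22, adjusted p = 5.11e-10), the largest fall among members with at least 100 counts. SCD was 1.68-fold lower (-0.75 ± 0.15, adjusted p = 0.000185) and 2.62-fold lower (-1.39 ± 0.15, adjusted p = 3.52e-08). FASN was 2.13-fold (adjusted p = 2e-05) and 1.79-fold lower (adjusted p = 0.000406), and ACACA 1.45-fold (0.00179) and 1.498-fold lower (0.000777). ACLY and ELOVL6 passed neither test.

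Among the cholesterol genes, HMGCS1, LSS, MVK and MVD were lower than in control cells with both shRNAs, and MSMO1 was called in opposite directions. HMGCS1 stayed below control cells with shMETTL3 (-0.66 ± 0.17, adjusted p = 0.00265) and with shMETTL14 (-0.76 ± 0.17, adjusted p = 0.000767). LSS was 4.24-fold lower with shMETTL3 (-2.08 ± 0.15, adjusted p = 1.59e-11) and 2.41-fold lower with shMETTL14 (-1.27 ± 0.14, adjusted p = 5.35e-08). MSMO1 was 1.74-fold higher with shMETTL3 (0.80 ± 0.17, adjusted p = 0.000581) and 1.75-fold lower with shMETTL14 (-0.81 ± 0.20, adjusted p = 0.00201). IDI1 (0.51 ± 0.19, adjusted p = 0.0358) and INSIG1 (0.46 ± 0.17, adjusted p = 0.0334) were higher with shMETTL3 and did not pass with shMETTL14, where INSIG1 had an interval from -0.62 to 0.12. With every read of IDI2-AS1 taken off, IDI1 had 23 and 13 raw counts in control cells and 10 and 16 with shMETTL3. The rise of IDI1 over control cells therefore cannot be told apart from reads of that gene. FDPS, FDFT1, SQLE and SC5D were lower with shMETTL14 by 0.64 to 0.93 on the log2 scale and did not pass with shMETTL3. STARD4 was 3.85-fold lower with shMETTL14 (-1.94 ± 0.26, adjusted p = 7.34e-07), and with shMETTL3 its estimate was -0.30 ± 0.21 (adjusted p = 0.269). MVK was lower in both, with 30 and 28 raw counts in control cells, 7 and 5 with shMETTL3 and 8 and 7 with shMETTL14, and the raw counts of PMVK were 23 and 19 in control cells and 1 and 3 after METTL3 knockdown.

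Against control cells, 8 of the 12 falls and 1 of the 3 rises with shMETTL3 (MSMO1) and 10 of the 16 falls with shMETTL14 held under every alternative fitted. With shMETTL3, IDI1 lost its call without control replicate 1 (adjusted p = 0.235), control replicate 2 (0.0698) or shMETTL3 replicate 1 (0.115), and INSIG1 without control replicate 2 (0.307) or shMETTL3 replicate 2 (0.12), which left 1 member higher without control replicate 2. SREBF1, SREBF2 and MVD lost theirs without control replicate 1 (0.151, 0.0595 and 0.343) or shMETTL3 replicate 2 (0.16, 0.0608 and 0.155), which left 9 lower. With shMETTL14, the falls of FDPS, MSMO1 and SC5D were lost without control replicate 2 (0.073, 0.0882 and 0.104), and those of MVD and SREBF2 without control replicate 1 (0.239 and 0.051), as was that of MVK (0.0516). FDPS and MVD also lost theirs without either shMETTL14 library (0.0643 and 0.0543 for FDPS, 0.0782 and 0.123 for MVD), as did MVK (0.0589 and 0.0617), and SC5D without shMETTL14 replicate 1 (0.226). DESeq2 did not call the falls of HMGCS1 (0.0632), MVD (0.267), SREBF1 (0.0881) and SREBF2 (0.0526) or the rises of IDI1 (0.206) and INSIG1 (0.165) with shMETTL3, nor the falls of MVK (0.092), MVD (0.167), FDPS (0.0906) and SC5D (0.0735) with shMETTL14. With shMETTL3, MVD kept its call under 5 of 12 alternatives, IDI1 under 5 and INSIG1 under 7. SREBF1, not called with shMETTL14, was called lower there under 7 of 12 alternatives, with adjusted p from 0.00947 to 0.0476.

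CYP51A1, the lanosterol demethylase that acts between LSS and MSMO1, had similar levels in the 4 groups. It was measured at 104 and 112 normalized counts in control cells, 125 and 116 for shControl, 110 and 113 after METTL3 knockdown and 111 and 100 after METTL14 knockdown, and it passed in none of the 6 comparisons. ACLY, NSDHL, EBP, DHCR7 and ELOVL6 also passed in none of them, although ACLY, NSDHL, DHCR7 and ELOVL6 passed in at least 1 of them under other processing. Among members with at least 100 counts, CYP51A1 and ACLY varied least across the 8 libraries, at 100 to 125 and 441 to 596 normalized counts.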

How the data were processed

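The 8 libraries were aligned to hg19 with STAR, per the labels, and the authors counted reads over whole gene bodies with HOMER. The deposited values are these raw counts, with no normalization and with replicates kept apart, beside the length in bases that the authors give for each gene. The command recorded in the table asks for counts of 1 strand, yet 599 genes lying at least 90% inside a gene of the opposite strand with at least 100 counts had a median count of 0.85 times that of even coverage by the outer gene, so the counts act as unstranded.

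Counts of all 8 libraries were fitted in 1 model with edgeR 4.0.16 in R 4.3.3 (TMM normalization, filterByExpr with a minimum count of 10, quasi-likelihood test), with Benjamini-Hochberg adjustment of p-values over all 12844 genes tested, with a threshold of 0.05. Intervals are 95%. For a gene with no more than 3 counts in each library of a group, a ratio of summed counts with an exact binomial interval is given in place of the fitted fold. Tested on simulated counts for METTL3 knockdown, with a log2 fold change of 1 given to 200 genes, edgeR found 174 of them with the right sign and also called 9 unchanged genes, against 121 and 2 for DESeq2. The simulation gave every gene and group 1 common spread. The measured shMETTL3 replicates varied more than those of the other groups, so the simulation does not give the error rate of that comparison. The alternatives were DESeq2 1.42.0, other scalings and filters, fits restricted to the groups in question, a block for replicate number, stricter thresholds, members sharing under 5% of their span, and each library left out in turn.

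All 28 members are named. The rule set full statistics for the called members with the 3 largest changes per role, those of further members were added after their values were seen, and, from each other list, at most 2 called rises and 2 called falls per comparison with a mean of at least 50 counts. Genes covered by this rule are in part not reported here. The rule for the members uses gene symbols alone, but the members, lists and tests were chosen with earlier results of these data known. No scaling to the Drosophila spike-in was made here, and a shift of every gene at once would go unseen. The labels name METTL14 on the samples, and 4-OHT dose and day were taken from the study's methods, which do not give the day for fastGRO-seq itself. Plots were drawn with matplotlib 3.10.9.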

Additional observations from a re-analysis of the deposited data

How the results depend on the processing

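Scaled by total count alone, ribosomal RNA rows included, 23 members were lower in senescence, 18 were higher and 1 lower with shMETTL3, and 3 were higher and 2 lower with shMETTL14, and the members' median log2 fold changes were -0.97, 0.78 and 0.15, the last reversed from -0.21. ACLY reversed to -0.43 in senescence (adjusted p = 0.0354). The medians were then -0.54 between the knockdowns, -0.067 for shMETTL3 and -0.93 for shMETTL14 against control cells. With upper quartile scaling, the median was -0.53 in senescence and -0.25 for shMETTL3 against control cells, where 1 member was higher, and 2 were higher with shMETTL14. TMM without ribosomal RNA rows gave a median of -0.13 for shMETTL3 against control cells. DESeq2 called 3 members higher and 1 lower with shMETTL3, 0 higher with shMETTL14, and 1 higher with shMETTL3 against control cells. Without a filter, 0 were higher with shMETTL14. With at least 10 counts in every library, fewer members were tested, 1 was lower with shMETTL3, 1 higher between the knockdowns with a median of -0.42, and 1 higher with shMETTL3 against control cells. Fits of only the groups compared gave medians of -0.40 in senescence, 0.23 with shMETTL3 and -0.70 for shMETTL14 against control cells, with 1 member lower with shMETTL3 and 2 higher with shMETTL14. At an adjusted p below 0.01, 3 were higher and 1 lower with shMETTL3, 0 higher with shMETTL14 and 1 higher with shMETTL3 against control cells. When a log2 fold change of 1 or more in size was also required, 6 were lower in senescence, 2 higher and 1 lower with shMETTL3, 0 higher and 2 lower with shMETTL14, 1 higher and 5 lower between the knockdowns, 0 higher and 5 lower with shMETTL3 against control cells, and 6 lower with shMETTL14 against control cells. Other than the smaller number of members tested and the stricter thresholds, the cause of these shifts was not tested.

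With libraries left out in turn, the members called lower in senescence ranged from 6 to 10 and the median from -0.65 to -0.43. With shMETTL3 they ranged from 3 to 7 higher and 1 to 4 lower, with medians of 0.10 to 0.21, and with shMETTL14 from 0 to 1 higher and 0 to 4 lower, with medians of -0.20 to -0.15. Between the knockdowns they ranged from 2 to 4 higher and 9 to 12 lower, with medians of -0.41 to -0.20. Against control cells they ranged from 1 to 3 higher and 9 to 12 lower with shMETTL3 (medians -0.40 to -0.095) and from 12 to 14 lower with shMETTL14 (medians -0.80 to -0.70). Differences between replicates of 2 groups had correlations of -0.039 to 0.101, so libraries of the same number were not taken as pairs. With the replicate number as a block, the counts of members called were 11 lower in senescence, 7 higher and 2 lower with shMETTL3, 1 higher and 4 lower with shMETTL14, and 17 lower with shMETTL14 against control cells, against 16 without it. In senescence the block dropped MVK (adjusted p = 0.055) and added MSMO1 (0.0403), and against control cells it added SREBF1 with shMETTL14 (0.0468). Depth limits the 5 members with mean counts of 8.0 to 12.9, whose SEs in the 3 main comparisons ran from 0.47 to 0.97 on the log2 scale.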
